A study of Homo sapiens with 9 samples.

Results

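Chromosome 19 was examined as the set of all ChIRP-seq peaks that the authors placed on it in hg19. The 3 SRA lists and the 3 LacZ lists together held 1298 peaks on chromosome 19, of 20698 peaks in all. The 1010 SRA peaks among them stood at 583 distinct positions, of 8658 distinct SRA positions in the series, and the other 288 were LacZ peaks. Both groups came from K562, a human erythroleukemia cell line that was grown without any treatment named in the labels. In ChIRP, biotinylated oligonucleotide probes against an RNA capture the crosslinked chromatin around it. The SRA group was pulled down with probes against the lncRNA steroid receptor RNA activator, and the LacZ group with probes against the transcript of a bacterial gene that human cells lack, which served as the negative control. Each group had 3 samples, and the 3 input samples were not analysed here. Placement was by chromosome name alone, so 3 SRA peaks on an unplaced contig of chromosome 19 were not counted.

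Chromosome 19 is known as the most gene-dense human chromosome. It also carries a large part of the zinc finger genes, many of which encode transcription factors with a KRAB repressor domain, and which lie side by side in clusters that arose by tandem duplication. These clusters are known for repressive histone marks over the zinc finger exons, in contrast to the housekeeping and tissue genes that fill the stretches between them. In the RefSeq annotation of GRCh38.p14, used for gene names and order only, 250 of the 517 coding genes named ZNF, or 48.4%, were on chromosome 19. They made up 17.2% of its 1451 coding genes. Of these 250 genes, 226 had another ZNF gene as a direct neighbour among coding genes, and they formed 16 unbroken runs of at least 5, the longest of 27.

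The 5 cluster regions were set as approximate hg19 bounds, from 19.5 to 24.5, 35 to 38.5, 44 to 45, 52 to 54, and 56.5 to 59 Mb, and are called clusters 1 to 5 in this order. They cover 14 Mb, or 23.7% of the 59.0 Mb up to the last peak of any list. A peak was placed by its midpoint. The rest of the chromosome also holds ZNF genes, which were not placed on it here, so it is not free of them. Genes under single peaks were not analysed here, since no annotation or genome in hg19 coordinates was used.

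SRA peaks were densest on chromosome 19. With 583 distinct SRA peaks it had 9.87 per Mb, against 2.84 per Mb over chromosomes 1 to 22 and X, a ratio of 3.48. Chromosome 22 followed with 6.03 per Mb, chromosome 17 with 4.93, chromosome 1 with 4.74, and chromosome 16 with 4.60. The LacZ peaks, with the 3 lists added together, were also densest on chromosome 19, with 4.88 per Mb against 1.83 over the 23 chromosomes, a ratio of 2.66. Chromosome 19 was thus the densest of the 23 chromosomes with either probe set. The distinct SRA peaks numbered 2.02 for each LacZ peak on chromosome 19, 2.95 on chromosome 22, 2.24 on chromosome 9, 1.93 on chromosome 16, 1.59 on chromosome 17, and 1.55 over all 23 chromosomes.

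Set against the number of genes, chromosome 19 was not high. It had 40.2 distinct SRA peaks per 100 coding genes, which placed it fifteenth of the 23 chromosomes and below the 43.0 of all of them together. Chromosome 22 had 68.1, chromosome 16 had 48.5, and chromosome 17 had 34.2. Across the 23 chromosomes, the number of distinct SRA peaks and the number of coding genes were correlated (Pearson r 0.87, Spearman rho 0.86), as were the LacZ peaks and the coding genes (0.86 and 0.81). These points also share chromosome length, so the values are a description.

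**Figure D1:**
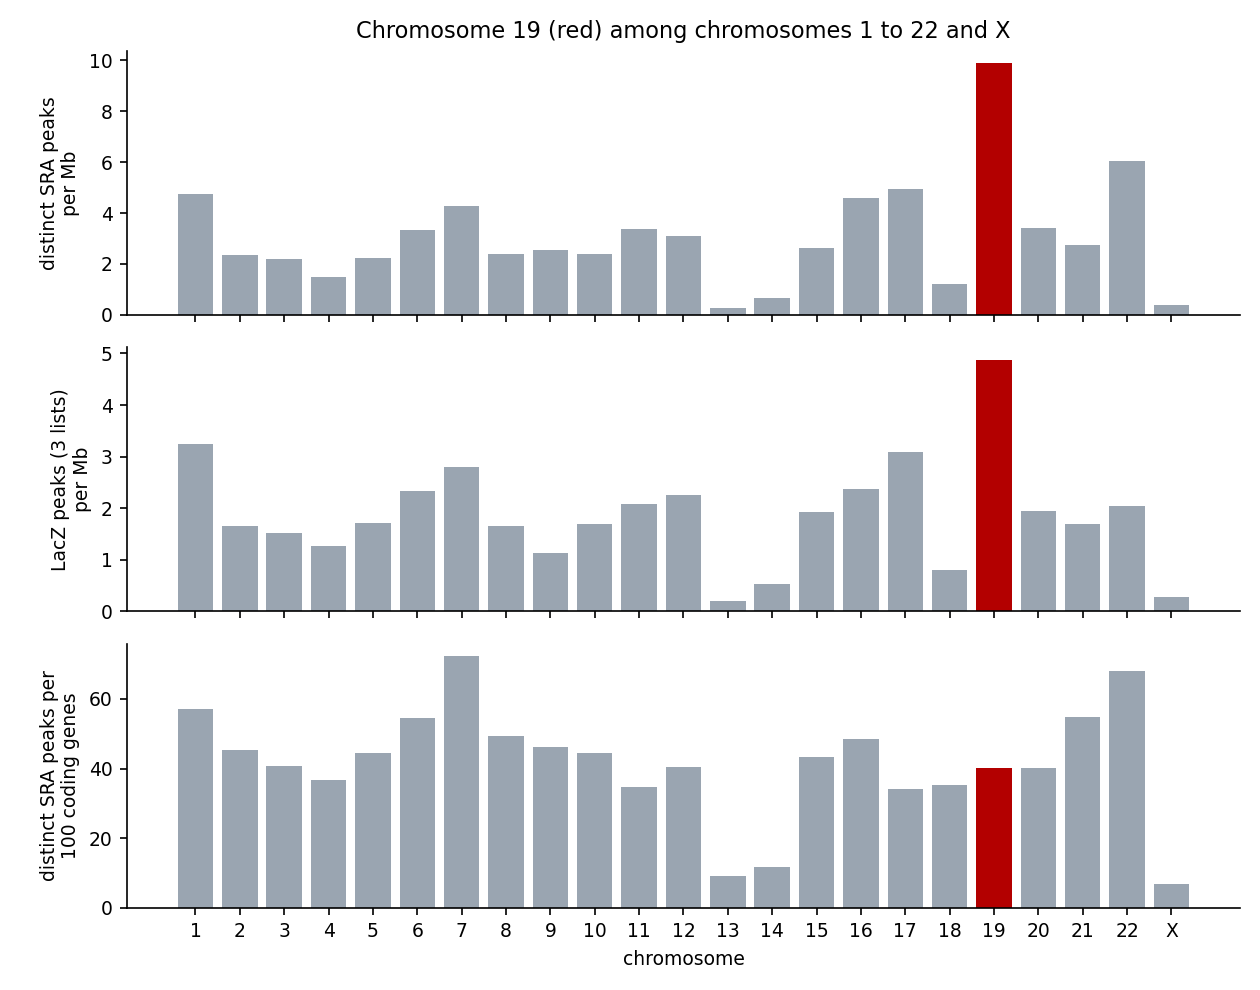
Distinct SRA peaks per Mb (top), LacZ peaks of the 3 lists per Mb (middle), and distinct SRA peaks per 100 coding genes (bottom) for each of 23 chromosomes, with length taken up to the last peak. Chromosome 19, in red, is the highest in the upper panels at 9.87 and 4.88 per Mb, but is near the middle in the lowest panel at 40.2.

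Chromosome 19 took a larger share of the SRA lists than of the LacZ lists. SRA lists 1, 2, and 3 held 343, 304, and 363 peaks there, or 6.88, 6.15, and 7.00% of their peaks. LacZ lists 1, 2, and 3 held 143, 131, and 14, or 5.34, 5.01, and 4.83%, a mean of 5.06 ± 0.26% (SD, n = 3). The lowest SRA list was above the highest LacZ list, and the means differed by 1.62 percentage points, a ratio of 1.32 (two-sided exact permutation test, p = 0.1, the smallest that 3 lists against 3 allow). Chromosomes 9, 16, and 22 were separated in the same way, so that this held for 4 of the 23 chromosomes, or 17.4%. Chromosomes 1 and 12 were separated the other way, with every SRA share below every LacZ share. On chromosome 9 the SRA shares were 4.18, 4.23, and 4.47% and the LacZ shares 2.80, 2.94, and 2.76%. On chromosome 16 the SRA shares were 4.86, 4.97, and 4.97% and the LacZ shares 4.07, 3.59, and 3.79%. On chromosome 22 they were 3.35, 3.34, and 4.22% and 1.91, 1.95, and 0.690%. Among the 4 tests made between the groups, the adjusted p was 0.2 by Benjamini-Hochberg for this exact permutation test. The intervals of single lists overlapped, with 5.51 to 6.85% in SRA list 2 and 4.55 to 6.26% in LacZ list 1 (95% Wilson intervals, counting error only). Without LacZ list 3, the difference was 1.5 percentage points. With the same number of top-scoring peaks taken from every list, it was 1.49 percentage points and the groups overlapped (exact permutation p = 0.3).

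The SRA lists shared peak coordinates. On chromosome 19, 163 pairs of peaks overlapped between SRA lists 1 and 2, 195 between lists 1 and 3, and 182 between lists 2 and 3, and the start and end were identical in every pair. LacZ lists 1 and 2 had 2 overlapping pairs, neither with the same ends. How these shared ends arose is not given in the sources used here, so the spread among the 3 SRA values was not read as a replicate error. With the SRA lists counted as 1 sample, the exact permutation p was 0.25, the smallest that 1 sample against 3 allows. LacZ list 3 also stood apart, with 14 peaks of 687 to 1522 bp on chromosome 19, none as narrow as any peak of LacZ list 1 or 2 there.

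Peaks were sparse in the zinc finger clusters. The clusters held 50 of the 583 distinct SRA peaks, or 8.58% (95% Wilson interval 6.57 to 11.1%), on 23.7% of the length. This is 3.57 peaks per Mb, against 11.8 per Mb on the rest of the chromosome, a ratio of 0.302 (0.226 to 0.403, from the same interval). The ratio was 0.331, 0.365, and 0.300 in SRA lists 1, 2, and 3. It was 0.377, 0.512, and 0.536 in LacZ lists 1, 2, and 3, so that LacZ peaks were sparse in the clusters too.

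The share of chromosome 19 peaks that fell in the clusters was 9.33, 10.2, and 8.54% in the SRA lists, from 32, 31, and 31 peaks. It was 10.5, 13.7, and 14.3% in the LacZ lists, from 15, 18, and 2 peaks, a mean of 12.8 ± 2.1% (SD, n = 3). Every SRA list was below every LacZ list, by 3.48 percentage points between the means (two-sided exact permutation test, p = 0.1, adjusted p = 0.2). Counting error was larger than this gap, with 95% Wilson intervals of 6.69 to 12.9% in SRA list 1 and 6.46 to 16.6% in LacZ list 1. The groups also overlapped with peaks under the median score left out (exact permutation p = 0.4) and with clusters widened by 0.5 Mb (p = 0.2). The direction depended on where the clusters were taken to end. With each cluster narrowed by 0.25 Mb at both sides, the SRA share was 1.32 percentage points above the LacZ share, because neither cluster peak of LacZ list 3 lay inside the narrowed bounds. LacZ lists 1 and 2 then had 8.39 and 7.63%, above the 7.29, 6.91, and 5.79% of the SRA lists.

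**Figure D2:**
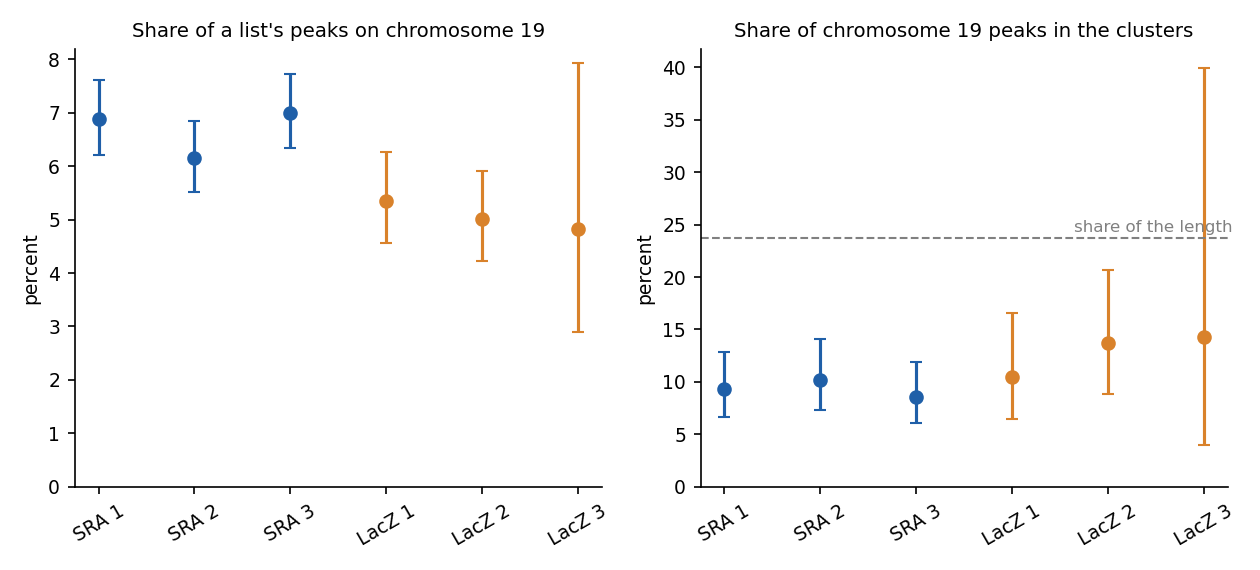
Share of each list's peaks on chromosome 19 (left) and share of its chromosome 19 peaks in the zinc finger clusters (right), in percent, with 95% Wilson intervals as bars (SRA blue, LacZ orange). The SRA lists lie above the LacZ lists on the left (6.15 to 7.00% against 4.83 to 5.34%), and every share on the right lies below the dashed line, which marks the 23.7% of the length that the clusters cover and which the interval of LacZ list 3 crosses.

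The clusters differed among themselves. Cluster 1, which lies on the short arm next to the centromere, held 11 distinct SRA peaks in 5 Mb, or 2.2 per Mb, and 7 of these 11 lay in its first 0.5 Mb. The SRA lists held 7, 6, and 8 peaks in cluster 1 and the LacZ lists 2, 3, and 0. Cluster 5, toward the end of the long arm, was the sparsest, with 4 distinct SRA peaks in 2.5 Mb, or 1.6 per Mb. It was also the only one of the 5 with more LacZ peaks than distinct SRA peaks, with 1, 4, and 1 in the LacZ lists against 3, 2, and 3 in the SRA lists.

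The remaining clusters were denser. Cluster 2 held 15 distinct SRA peaks, or 4.29 per Mb, with 10, 12, and 10 in the SRA lists and 6, 5, and 0 in the LacZ lists. They were uneven along it, with 9 from 35 to 36 Mb, 5 from 36 to 37 Mb, and 0 from 37 to 38 Mb. Cluster 3, the shortest, held 6 distinct SRA peaks in 1 Mb, with 3, 4, and 4 in the SRA lists and 2, 4, and 0 in the LacZ lists. Its 6 LacZ peaks per Mb were close to the 5.62 per Mb on the rest of the chromosome. Cluster 4 was the densest in distinct SRA peaks, with 14 or 7.0 per Mb, from 9, 7, and 6 in the SRA lists and 4, 2, and 1 in the LacZ lists. In SRA lists 2 and 3 taken singly, cluster 3 was denser, with 4 per Mb in each against 3.5 and 3 in cluster 4. The 14 peaks of LacZ list 3 are too few to show an absence from clusters 1 to 3, since a count of 0 allows a share of up to 21.4%.

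The stretches between the clusters were not alike either. The 19.5 Mb before cluster 1, most of the short arm, held 282 distinct SRA peaks, or 14.5 per Mb, against 9.87 for the whole chromosome. The highest density was between clusters 3 and 4, from 45 to 52 Mb, with 126 distinct SRA peaks or 18.0 per Mb. The SRA lists held 67, 59, and 83 peaks there and the LacZ lists 25, 30, and 2. Between clusters 4 and 5 the density was 13.2 per Mb, and between clusters 2 and 3 it was 11.8 per Mb.

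The stretch between clusters 1 and 2 was no denser than the 5 clusters as a whole. From 24.5 to 35 Mb, which includes the centromere, it held 26 distinct SRA peaks, or 2.48 per Mb, and 13 LacZ peaks. Of the 26, 16 lay between 33 and 35 Mb. The longest stretch without a peak in any of the 6 lists was 3.77 Mb long, chr19:23959578-27731764, and runs from the end of cluster 1 across the centromere. Low peak density per Mb on chromosome 19 was therefore found both in zinc finger clusters and in this stretch around the centromere. Lengths were taken from coordinates alone, with no account of sequence to which reads cannot be aligned. An empty stretch across the centromere was therefore not read as a lack of binding.

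**Figure D3:**
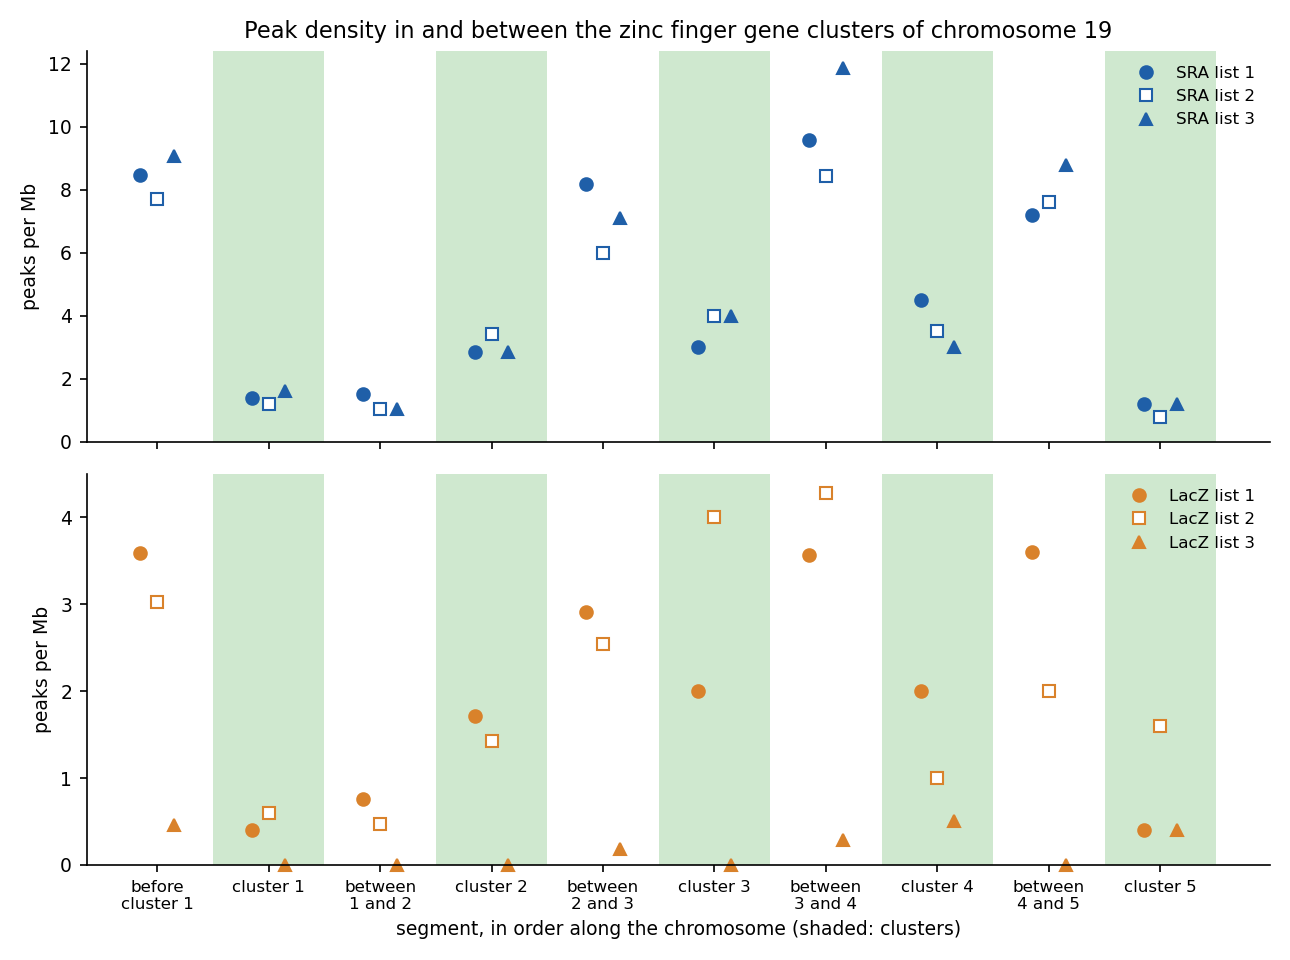
Peaks per Mb in each SRA list (top) and each LacZ list (bottom) for the 10 segments of chromosome 19 in order, with the zinc finger clusters shaded. In the SRA lists all 5 clusters and the stretch between clusters 1 and 2 stay at or below 4.5 per Mb, whereas the other stretches lie between 6.0 and 11.9 per Mb.

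In bins of 1 Mb, chromosome 19 had a median of 9 distinct SRA peaks, with a range from 0 to 27. The median was 11 in the 44 bins wholly outside the clusters and 3 in the 12 bins wholly inside them. In LacZ peaks of the 3 lists, these medians were 6 and 2. Of the 60 bins, 8 had no SRA peak, and none of these 8 held a LacZ peak. They were the bins from 20 to 21, 22 to 23, and 37 to 38 Mb in clusters 1 and 2, from 57 to 58 Mb in cluster 5, from 24 to 27 Mb at the end of cluster 1 and beyond it, and from 31 to 32 Mb on the long arm. At this number of peaks, a count of 0 allows a share of up to 0.515% of the distinct SRA peaks in a bin. Bins to which reads cannot be aligned were not set apart.

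The densest bins all lay outside the clusters. The bin from 4 to 5 Mb held 27 distinct SRA peaks, with 14, 23, and 17 in the SRA lists and 6, 7, and 0 in the LacZ lists. The bin from 50 to 51 Mb also held 27, with 17, 12, and 18 in the SRA lists and 4, 3, and 0 in the LacZ lists. In both bins the lowest SRA share of peaks was above the highest LacZ share. Choosing bins by their SRA peaks favours this, so nothing is read from it. It did not hold in the bins from 45 to 46, 1 to 2, and 17 to 18 Mb, which followed in density.

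The bin from 45 to 46 Mb held 24 distinct SRA peaks, with 10, 13, and 19 in the SRA lists and 4, 7, and 0 in the LacZ lists. The bin from 1 to 2 Mb held 24, with 14, 9, and 16 in the SRA lists and 0, 3, and 1 in the LacZ lists. The bin from 17 to 18 Mb held 23, with 15, 4, and 13 in the SRA lists and 6, 4, and 0 in the LacZ lists, and 1 of its 23 peaks was in all 3 SRA lists against 8 of 27 in the bin from 4 to 5 Mb. Together these 5 bins, 8.47% of the length, held 21.4% of the distinct SRA peaks and 15.6% of the LacZ peaks. The bins were chosen by their SRA peaks, which favours a higher SRA share, so nothing is read from this difference. With peaks in at least 2 SRA lists, 3 of these 5 bins were still among the 5 densest.

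As a share of all peaks of a list, the SRA lists all lay above the LacZ lists in 12 of the 52 bins of chromosome 19 that held a peak, or 23.1%. The same was true of 19.4% of the 2206 bins with a peak over chromosomes 1 to 22 and X, so chromosome 19 was near the background. Of the 12 bins, 8 were wholly outside the clusters, 2 wholly inside, and 2 across a bound. The LacZ counts followed the SRA counts along the chromosome, where Pearson r was 0.76 and Spearman rho 0.79 over 60 bins, and 0.66 and 0.63 over the 41 bins with a peak that lie wholly outside the clusters. These bins share the genome sequence, the aligner, and the cells, and the values are a description.

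**Figure D4:**
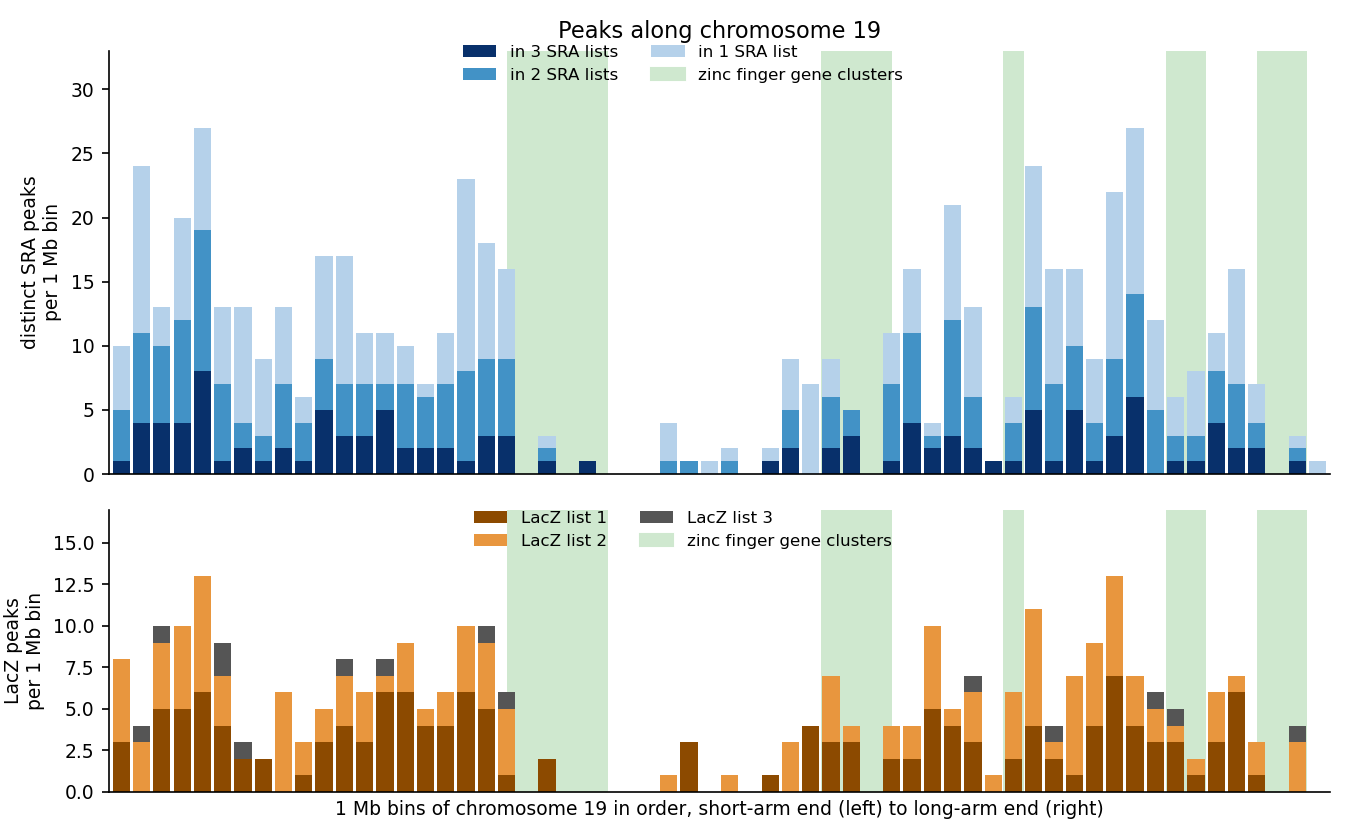
Distinct SRA peaks (top, coloured by the number of SRA lists that hold them) and LacZ peaks (bottom, coloured by list) per 1 Mb bin of chromosome 19 in order, with the zinc finger clusters shaded. SRA peaks reach 27 in a bin on either arm outside the clusters and no more than 9 in a bin wholly inside a cluster. The 8 bins without SRA peaks hold no LacZ peak either, but LacZ peaks reach 7 in a cluster bin.

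Of the 583 distinct SRA peaks of chromosome 19, 269 were in 1 SRA list, 201 in 2 lists, and 113 in all 3 lists. The last were 19.4% (95% Wilson interval 16.4 to 22.8%), against 21.5% of all distinct SRA peaks of the series. The share was 23.7% on chromosome 16, 19.8% on chromosome 17, and 23.5% on chromosome 22, so chromosome 19 was near the background in how often its peaks recurred. In the clusters 12 of 50 peaks were in all 3 lists, or 24% (14.3 to 37.4%), and outside them 101 of 533, or 18.9% (15.9 to 22.5%). The 2 intervals overlapped, so a difference in recurrence was not detectable with 50 cluster peaks.

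SRA list 1 alone held 98 peaks, list 2 alone 72, and list 3 alone 99. Lists 1 and 2 alone shared 50, lists 1 and 3 shared 82, and lists 2 and 3 shared 69. Peaks in more lists had higher scores, with a median of the mean score of 42.3 for peaks in 1 list, 44.5 in 2 lists, and 47.2 in all 3. Some shared peaks had the same score in all 3 lists as well, such as chr19:23959395-23959577 with 57.4 in each. The number of lists was therefore not read as independent recurrence. The score is the value that MACS, the peak caller, gave to each peak, with a minimum of 40 in these lists, so it shows how far a peak passed the caller's limit and not how much RNA was bound.

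**Figure D5:**
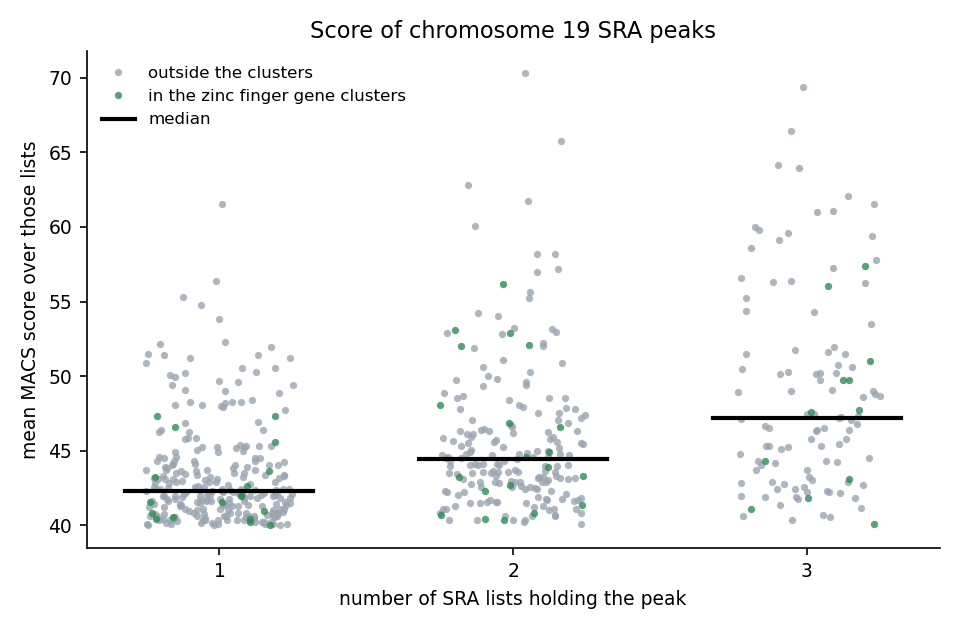
Mean MACS score of each distinct SRA peak of chromosome 19 over the SRA lists that hold it, by the number of those lists (points spread sideways at random, black lines medians). The medians are 42.3, 44.5, and 47.2 for 1, 2, and 3 lists, and peaks in the clusters, in green, reach a highest score of 57.4.

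Chromosome 19 peaks were of ordinary width and score. The median width was 151, 153, and 152 bp in SRA lists 1, 2, and 3 and 148, 152, and 908.5 bp in LacZ lists 1, 2, and 3. On all other chromosomes together the SRA medians were 158, 157, and 159 bp. Over distinct SRA peaks the median width was 152 bp on chromosome 19, 152 bp on chromosome 16, and 151 bp on chromosome 17, whereas it was 662 bp on chromosome 22. The groups overlapped (two-sided exact permutation test, p = 0.9, adjusted p = 0.9), and without LacZ list 3 the mean of the medians was 2 bp wider for SRA. Only 1 of the 583 distinct SRA peaks, or 0.172%, was 500 bp or wider, against 3.52% on the rest of the genome. Chromosome 22 held 182 of those 284 wide peaks, and without it the share on the rest was 1.31%. It was 0 of 414 peaks on chromosome 16 and 3 of 400 on chromosome 17.

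The median score was 43.84, 44.17, and 44.08 in the SRA lists and 44.00, 44.73, and 44.05 in the LacZ lists, which overlapped (two-sided exact permutation test, p = 0.6, adjusted p = 0.8). Over distinct SRA peaks the median of the mean score was 43.60 on chromosome 19 and 43.55 elsewhere. The highest mean score was 70.3 on chromosome 19 and 441 elsewhere, where 19 of 8075 distinct SRA peaks reached 100. Chromosomes 16 and 22 held none of these 19 either, and chromosome 17 held 1. A mean score of 60 was reached by 2.4% of peaks on chromosome 19. Elsewhere it was reached by 2.9%, or 2.4% without chromosome 22. In the clusters the median was 43.27 and the highest 57.4, and outside them 43.60 and 70.3. The median width was 155 bp in the clusters and 152 bp outside.

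Of the 112 chromosome 19 peaks in all 3 SRA lists that overlapped no LacZ peak, the 5 with the highest mean score lay outside the clusters. So did 101 of the 113 peaks in all 3 lists. Of all 583 distinct SRA peaks 533 lay there, so these peaks were near the background. The strongest, chr19:1728341-1728592 (252 bp), had scores of 66.8, 69.7, and 71.6 in SRA lists 1, 2, and 3, a mean of 69.4. It was high in all 3 lists and lies in the bin from 1 to 2 Mb, among the densest.

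The others were less even between lists. The peak chr19:3155542-3155796 (255 bp) had scores of 49.4, 76.1, and 73.7. The peak chr19:40452867-40453083 (217 bp) had 51.2, 70.1, and 71.2, and it lies in a bin with 4 distinct SRA peaks in all. In chr19:12057779-12057948 (170 bp) the scores were 54.4, 69.4, and 68.2. In these 3 peaks list 1 was the lowest and lists 2 and 3 were close to each other.

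The peak chr19:47853065-47853510 had the opposite order, with 77.7, 61.7, and 46.9. Its 446 bp made it also the second widest distinct SRA peak of the chromosome. The widest, chr19:27731765-27732838 (1074 bp), was in SRA lists 1 and 2 with scores of 43.2 and 56.7. The next in width after these, chr19:27738386-27738783 (398 bp), was in SRA list 2 alone with a score of 43.7. Both stand at the long-arm edge of the longest stretch without peaks, by the centromere, where 4 distinct SRA peaks lay between 27 and 28 Mb and SRA list 3 held none.

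SRA and LacZ peaks seldom coincided on chromosome 19. Of the 583 distinct SRA peaks, 4 shared at least 1 bp with a LacZ peak, or 0.686% (95% Wilson interval 0.267 to 1.75%), against 0.901% of all distinct SRA peaks. The LacZ lists seldom coincided with each other too. Their overlapping pairs numbered 2 between lists 1 and 2, 1 between lists 1 and 3, and 0 between lists 2 and 3. The low overlap was therefore not read as particular to SRA. All 4 overlapping SRA peaks lay on the short arm before cluster 1. The peak chr19:4222557-4222711 was in all 3 SRA lists with scores of 44.8, 47.9, and 43.0, and shared 147 bp with a peak of LacZ list 1 with a score of 55.6.

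The peaks chr19:3434673-3434810 and chr19:4851750-4851901 were in SRA lists 1 and 2, and shared 79 and 66 bp with peaks of LacZ list 1. The peak chr19:10491582-10491736 was in SRA list 2 alone and shared 32 bp with a peak of LacZ list 2. Without LacZ list 1, this last one was the single overlap that was left.

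Neighbouring SRA peaks were closer to each other on chromosome 19 than on chromosomes 16 and 17, with a median gap of 43.1 kb between distinct peaks against 77.8 and 75.3 kb, but not closer than on chromosome 22, with 9.86 kb. Of 582 gaps, 104 were 10 kb or less. Groups of 3 or more distinct peaks with gaps of at most 10 kb numbered 15 and held 49 peaks, or 8.4% of those on the chromosome. Groups were not counted on other chromosomes, and short gaps also go with a high density of peaks. Neither the gaps nor the groups were therefore read as grouping beyond that density. One group lay in a cluster, at the start of cluster 2.

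The largest group, chr19:49972222-49982277, held 5 distinct SRA peaks in 10.1 kb, with 4, 3, and 3 in the SRA lists and 1, 0, and 0 in the LacZ lists. The groups chr19:4144649-4153856 and chr19:4314865-4330056, both in the densest bin of the short arm, held 4 distinct peaks each. The first had 1, 4, and 3 in the SRA lists and the second 4, 2, and 3, with no LacZ peak in either. The remaining 12 groups held 3 each. The first of these along the chromosome were chr19:1900735-1906071 and chr19:3355621-3366475, and in the latter SRA list 1 held none, list 2 held 1, and list 3 held 3.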

How the data were processed

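The authors aligned single-end 50 bp ChIRP-seq reads to hg19 and called peaks with MACS. Per the file headers, each deposited list gives the start, end, and score of its peaks. The deposited score is headed −log10 of the p-value, yet its minimum of 40 would be 10 times −log10 of 0.0001, so it was taken as the caller's value on a scale not settled here. Scores ranked and filtered peaks within lists and were averaged and compared across lists, although the lists were not normalized to each other. CASAVA 1.8.2 and deepTools are also named in the submitters' processing notes. The MACS version and the control of each list are not given in the sources used here. Read depth is unknown, so no precision follows from it.

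All peaks on chromosome 19 were taken. Starts, which count from 0 in the files, are given from 1. SRA peaks with the same start and end were counted as 1 distinct peak, and peaks sharing at least 1 bp as overlapping. Groups were compared over lists by two-sided exact permutation tests, with Benjamini-Hochberg adjustment over 4 tests. The methods describe biological triplicates, although the SRA lists share peak coordinates. Wilson intervals cover counting error only. The text names the 5 peaks of highest mean score that all 3 SRA lists and no LacZ list held, the 3 widest, all overlapping LacZ peaks, the 5 densest bins, all bins without SRA peaks, the 5 clusters, and 5 groups, taken by number of peaks with ties by position. The chromosome, the cluster bounds, and these rules were chosen with earlier results of these data known.

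Alternatives were score and list-number filters, other cluster bounds, peak starts, other bin widths, gaps of up to 500 bp, other denominators, each list left out, and lists paired by number. Overlap counting was tested on simulated data, where 200 of 200 planted overlaps were recovered. Calculations ran in Python 3.11.15 with scipy 1.17.1, numpy 2.4.6, and pandas 2.3.3, and plots were drawn with matplotlib 3.10.9.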

Additional observations from a re-analysis of the deposited data

How the results depend on the processing

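The share of peaks on chromosome 19 stayed higher in the SRA lists under all 12 alternatives, by 1.46 to 1.99 percentage points, but the groups overlapped when each list gave equally many top-scoring peaks (exact permutation p = 0.3). The SRA share in the zinc finger clusters stayed lower under 12 of 13, and SRA minus LacZ was from -4.66 to -2.76 percentage points with each list left out. The groups overlapped without peaks under the median score (exact permutation p = 0.4) and with clusters widened by 0.5 Mb (exact permutation p = 0.2). The difference reversed to 1.32 percentage points above the LacZ share with clusters narrowed by 0.25 Mb, through LacZ list 3. The density ratio of clusters to the rest, 0.302, became 0.447 with clusters widened by 0.5 Mb and 0.410 without bins that held no peak, and was from 0.289 to 0.346 with each SRA list left out. The difference in median width, SRA minus LacZ, was from -378 to 2 bp with each list left out, and was above 0 only without LacZ replicate 3. That in median score was from -0.36 to 0.0067, above 0 only without LacZ replicate 2. Of the 5 densest bins, 3 overlapped the 5 densest under bins of 0.5 Mb, bins of 2 Mb, and peaks in at least 2 SRA lists alike. The 4 overlaps with LacZ peaks became 2 when peaks under the median score were dropped and 9 with gaps of up to 500 bp, and were from 1 to 4 with each LacZ list left out. These alternatives for the overlap were chosen after seeing the data. With lists of the same number paired as a replicate block, the differences were unchanged at 1.62 and -3.48 percentage points (p = 0.25 by exact permutation of signs, which cannot go lower with 3 pairs), -251 bp, and -0.23. Correlations of deviations over 2230 bins were 0.045, -0.026, and -0.012 for lists of the same number, so the numbers were not taken as pairs. No exact permutation p over these lists could pass 0.05.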
